A study of Sus scrofa with 9 samples.

Results

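Glycolysis and hypoxia response genes were followed in cultured pig endothelial cells from the inner lining of the coronary artery. The set was a list of 37 genes for glucose and lactate transporters, glycolytic enzymes, pyruvate dehydrogenase kinases, subunits and oxygen sensors of the hypoxia-inducible factor (HIF), and genes that hypoxia is known to induce. A member was measured where the platform annotation gave a probe set its symbol and no other symbol, and its probe set with the highest mean over the arrays stood for it. By that rule 25 of the 37 genes were present, among 6765 named genes in all. No probe set carried the symbol HK2, PFKFB3, ALDOA, PGAM1, SLC16A1, PDK1, EGLN3, VHL, BNIP3, NDRG1, DDIT4 or P4HA1, so these 12 were not analysed here.

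RNA was hybridised to 9 Affymetrix porcine arrays, 3 for each of 3 groups. Passage 4 cells had gone through weekly serial passaging and are called senescent in the labels. Regenerated cells came from endothelium that grew back in the animal after denudation, and were scraped off and cultured with no further passage. Passage 1 cells, kept in culture for 1 week, were the controls. The input to biotin labelling was 1 ug of RNA for passage 4 and passage 1 and 0.5 to 1 ug for regenerated cells, so RNA input and the regenerated group cannot be told apart. Nothing in the labels ties arrays to animals or cultures, so p-values measure array-to-array spread that may be technical only.

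Glycolysis turns glucose into pyruvate in the cytosol, and endothelial cells are known to draw most of their energy from it. Glucose enters through transporters of the SLC2A family. Pyruvate is either reduced to lactate and exported, or enters mitochondria and is oxidised by pyruvate dehydrogenase. The pyruvate dehydrogenase kinases inhibit that enzyme. HIF is a dimer of an oxygen-labile alpha subunit, HIF1A or EPAS1, with ARNT. The prolyl hydroxylase EGLN1 marks the alpha subunit for destruction when oxygen is present, and in hypoxia the surviving dimer induces glucose transporters, most glycolytic enzymes and genes such as CA9 and HILPDA.

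Values are MAS5 signals, a linear intensity per probe set, and a change is a difference of group means of log2(signal + 16), which understates the change of dim genes. Signals of different genes cannot be set against each other. Of the 25 genes, 23 passed the filter on dim probe sets and were tested, and ENO2 and ARNT did not. The signal of ENO2, the neuronal enolase, ran from 2.37 to 39.6 over the 9 arrays, and that of the brighter ARNT probe set from 16.8 to 47.4. A member is said to have risen or fallen where the limma test gave an adjusted p under 0.05 over all 15299 tested probe sets of the comparison. The median change over those probe sets was 0.04 for passage 4 against passage 1, -0.01 for regenerated against passage 1 and 0.01 for passage 4 against regenerated.

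The trimmed mean was 500.1 on each array, which scaling to a common level would give, so it does not show that the arrays were alike. Median signals ran from 103 to 109 in passage 4, 87.7 to 104 in regenerated cells and 86.5 to 100 in passage 1. Correlations within groups were 0.937 to 0.974. The arrays fell into 2 kinds, called labelling kinds here, by the 5′ minus 3′ signal of bacterial control transcripts that are added to the RNA. That log2 difference was -2.41, -1.92 and -1.93 in passage 4, -4.37, -4.64 and -5.31 in regenerated cells, and -2.25, -4.69 and -4.42 in passage 1. Passage 1 array 1 thus fell with the passage 4 arrays, and passage 1 arrays 2 and 3 with the regenerated arrays. The labels name no batch, and the kinds were inferred by a cut at the widest gap between these values, 1.96. A value within a labelling kind, given beside the results below, sets passage 4 against passage 1 array 1 alone and regenerated cells against passage 1 arrays 2 and 3. By their brightest probe sets the endothelial markers PECAM1 and CDH5 were bright in every array and did not pass in any comparison. PECAM1 averaged 8453 ± 964 in passage 4, 6981 ± 1267 in regenerated cells and 7894 ± 759 in passage 1, while the brightest probe sets of VWF (22.8 to 52.1) and KDR (0.798 to 23.6) were dim on all arrays (SD, n = 3 each). Of 11 endothelial markers tested, NOS3 fell in passage 4 cells (-0.97, adjusted p = 0.0450; -0.55 and adjusted p = 0.480 within the labelling kind) and CLDN5 in regenerated cells (-1.62, adjusted p = 0.0134; -1.60 and adjusted p = 0.0287 within it). The dimmer PECAM1 probe set fell in regenerated cells (-1.14, adjusted p = 0.0253) and was higher in passage 4 than in regenerated cells (1.42, adjusted p = 0.00613). The dimmer CDH5 probe set was also higher in passage 4 than in regenerated cells (2.31, adjusted p = 0.0139). Its regenerated signals were 1845, 339 and 293, and its change in regenerated cells against passage 1 was -1.61 (adjusted p = 0.0905).

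In passage 4 cells 4 of the 23 tested members fell and 1 rose against passage 1. The glucose transporters SLC2A1 and SLC2A3, the lactate exporter SLC16A3 and the HIF alpha subunit EPAS1 fell, and PDK4 rose. Among all 5493 named genes tested, 4.82% passed the threshold in that comparison, and among all probe sets 4.79%. In regenerated cells 2 members fell against passage 1, SLC2A3 and HILPDA, and none rose, beside 5.93% of named genes and 5.49% of probe sets. Between passage 4 and regenerated cells 1 member differed, HILPDA, beside 10.7% of named genes and 12.5% of probe sets. The share of members was 21.7%, 8.70% and 4.35% in the 3 comparisons. For passage 4 against passage 1 it stood above the share of named genes, with a count that varied with the arrays and settings, as given below. The members were chosen with earlier results of these data known, so that gap is not read as a trait of the set. Counts of 2 and 1 of 23 are not read as a difference from the shares of named genes. Passage 4 against passage 1 and regenerated against passage 1 share the passage 1 arrays. In bulk RNA such as this, fewer cells of a type and less RNA per cell cannot be told apart.

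Some of these counts rested on single arrays. The passage 4 count of 5 was 7 without passage 1 array 1. Passage 4 and the remaining passage 1 arrays are then of different labelling kinds, so kind and group cannot be told apart in that fit. The count was 1 without passage 1 array 2 or passage 4 array 1, 2 without passage 1 array 3 or passage 4 array 2 or 3, and 3 without regenerated array 2 or 3. The regenerated count of 2 was 5 without regenerated array 1, 4 without passage 1 array 1, and 1 without regenerated array 2 or 3, passage 4 array 1 or passage 1 array 3. For regenerated cells, leaving out passage 1 array 1 compares the same arrays as the value within a labelling kind, so the 2 are not separate checks. The count of 1 for passage 4 against regenerated was 2 without passage 4 array 2 and 3 without regenerated array 1. Within a labelling kind SLC2A3 was the member that passed in passage 4 cells, and SLC2A3, SLC2A1, SLC16A3 and PFKP passed in regenerated cells. None passed there for passage 4 against regenerated, with 1 at an unadjusted p under 0.05 (limma).

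**Figure D1:**
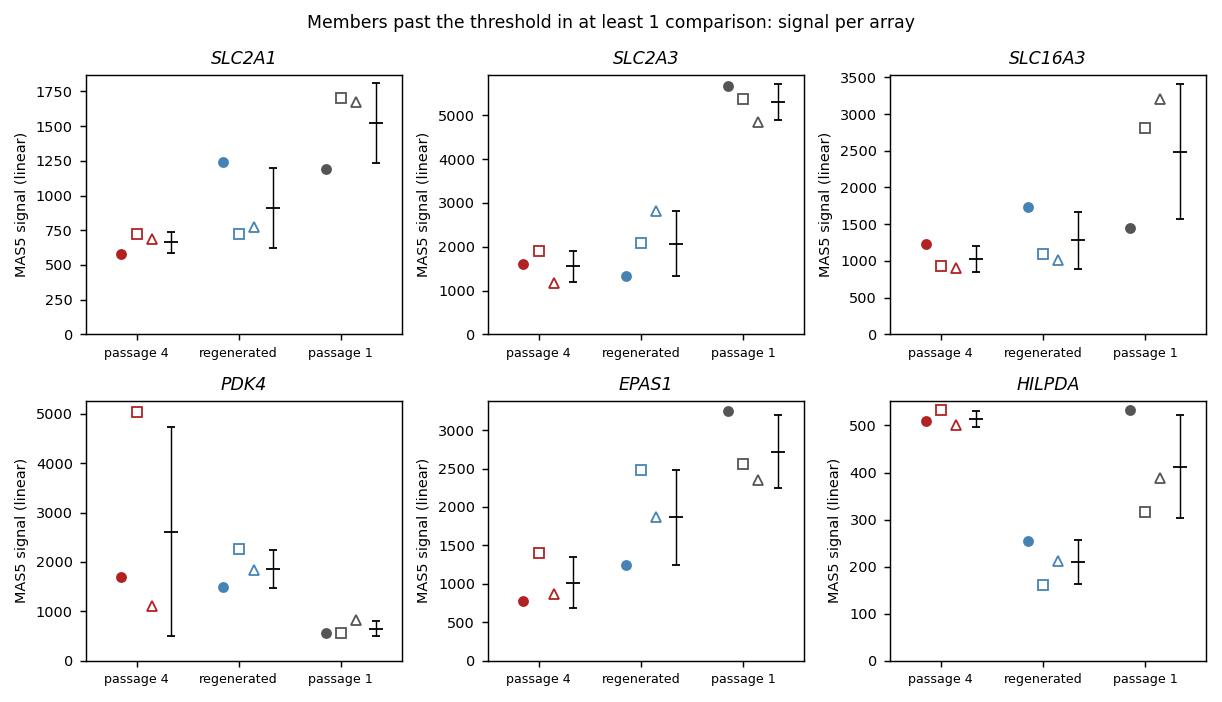
MAS5 signal on a linear axis for the 6 members past the threshold in at least 1 comparison, by group; circles, squares and triangles are arrays 1, 2 and 3, and the bar is the mean with its SD (n = 3). All passage 4 and regenerated arrays of SLC2A3 lie under the passage 1 arrays, and the passage 4 mean of PDK4 is carried by array 2 at 5036.

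All 3 measured transporters, of 4 listed, fell in passage 4 cells, with a median log2 change of -1.21, and their median was -0.91 in regenerated cells, where 1 of the 3 fell. SLC2A3, a high-affinity glucose transporter also known as GLUT3, had signals of 1599, 1893 and 1185 in passage 4, 1331, 2079 and 2807 in regenerated cells, and 5660, 5374 and 4855 in passage 1. Every passage 4 and every regenerated array was below every passage 1 array, while passage 4 and regenerated arrays overlapped. The log2 change was -1.78 ± 0.25 in passage 4 cells (SE, adjusted p = 0.00406) and -1.41 ± 0.25 in regenerated cells (adjusted p = 0.00955). Within a labelling kind the changes were -1.88 (adjusted p = 0.0411) and -1.36 (adjusted p = 0.0237). For passage 4 against regenerated cells the difference was -0.37 with a 95% interval of -0.92 to 0.19.

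SLC2A1, the basal glucose transporter known as GLUT1, had signals of 581, 723 and 684 in passage 4, 1238, 720 and 771 in regenerated cells, and 1191, 1703 and 1672 in passage 1. All passage 4 arrays lay below passage 1, and regenerated array 1 reached the level of the lowest passage 1 array. Its change was -1.17 ± 0.24 in passage 4 cells (SE, adjusted p = 0.0198) and -0.76 in regenerated cells (adjusted p = 0.0866). Within a labelling kind these were -0.84 (adjusted p = 0.265) and -0.92 (adjusted p = 0.0492), so the call moved to the other comparison.

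SLC16A3, the lactate exporter MCT4, had signals of 1225, 936 and 904 in passage 4, 1728, 1100 and 1014 in regenerated cells, and 1453, 2809 and 3207 in passage 1. The passage 4 arrays were all under the passage 1 arrays, although passage 1 array 1 was only a little above the highest of them, and regenerated array 1 overlapped passage 1. The change was -1.21 ± 0.30 in passage 4 cells (SE, adjusted p = 0.0411) and -0.91 in regenerated cells (adjusted p = 0.0967). Within a labelling kind it was -0.52 (adjusted p = 0.533) in passage 4 cells and -1.26 (adjusted p = 0.0167) in regenerated cells.

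None of the glycolytic enzymes passed the threshold in any comparison. Of 18 listed, 14 had a probe set and 13 were tested with limma. At an unadjusted p under 0.05 there were 3 for passage 4 against passage 1, 3 for regenerated against passage 1 and 2 for passage 4 against regenerated. Of all 5493 named genes tested, 1019, 1213 and 1468 were at that level. The shares of named genes past the threshold were 4.82%, 5.93% and 10.7%, so few of 13 genes would be called at those shares. The median log2 change of the 13 was -0.06 in passage 4 cells, with a range of -0.88 to 0.16, and -0.21 in regenerated cells, with a range of -0.76 to 0.27. Over all named genes tested the medians were -0.02 and -0.04. Between passage 4 and regenerated cells the median of the enzymes was 0.06, beside 0.01 for all named genes.

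GAPDH, PGK1, ENO1, LDHA and LDHB were at or above the 99th percentile of the probe sets on each array, whereas PKM was not. LDHA, the lactate dehydrogenase subunit that favours lactate formation, averaged 13923 ± 447 in passage 4, 13165 ± 1650 in regenerated cells and 14456 ± 1101 in passage 1 (SD, n = 3 each). Its change was -0.05 in passage 4 cells, with a 95% interval of -0.31 to 0.21, and -0.14 in regenerated cells, with an interval of -0.40 to 0.12. PGK1, the first ATP-forming kinase of the pathway, averaged 10854 ± 561 in passage 4, 11719 ± 2030 in regenerated cells and 12222 ± 1184 in passage 1. ENO1, the main enolase, averaged 13609 ± 780 in passage 4, 12166 ± 2176 in regenerated cells and 13952 ± 427 in passage 1. Among these genes the widest gap was that of LDHB, the subunit that favours pyruvate formation.

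LDHB signals were 14544, 13540 and 14727 in passage 4, 11730, 9885 and 12057 in regenerated cells, and 12586, 12910 and 12898 in passage 1. The 3 groups did not overlap, with passage 4 highest and regenerated lowest, yet the difference between passage 4 and regenerated cells was small, 0.35 ± 0.11 (SE, adjusted p = 0.0627). TPI1, triose phosphate isomerase, averaged 8292 ± 703 in passage 4, 5910 ± 1456 in regenerated cells and 8557 ± 1498 in passage 1 (SD, n = 3 each), and its change in regenerated cells was -0.54 (adjusted p = 0.108). PKM, pyruvate kinase, averaged 388 ± 23.2 in passage 4, 425 ± 98.2 in regenerated cells and 397 ± 120 in passage 1 by a probe set of moderate signal. Neither gene passed the threshold.

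GAPDH, the dehydrogenase often used as a loading control, averaged 20256 ± 2449 in passage 4, 20079 ± 4759 in regenerated cells and 18537 ± 247 in passage 1 (SD, n = 3 each). Its changes by this probe set were 0.12 in passage 4 and 0.09 in regenerated cells. A dimmer GAPDH probe set gave 4636, 5849 and 5869 in passage 4, 5595, 1935 and 2411 in regenerated cells, and 5353, 7352 and 6473 in passage 1. Regenerated arrays 2 and 3 were low there while regenerated array 1 was not, for a change of -1.09 in regenerated cells (adjusted p = 0.0668). The GAPDH control probe sets of the array also differed on those arrays. By those of 1 kind the log2 5′ minus 3′ signal was -1.07 and -1.52 on regenerated arrays 2 and 3, -0.02 on regenerated array 1, 0.14 to 0.46 in passage 4, and 0.19 to 0.25 in passage 1. By those of the other kind it was -0.24, -0.45 and -0.56 in regenerated cells, -0.07 to 0.01 in passage 4 and -0.07 to 0.07 in passage 1. Whether that end-to-end signal difference bears on the dimmer probe set was not tested.

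Of the upper enzymes, HK1, the constitutive hexokinase, averaged 5477 ± 446 in passage 4, 4739 ± 783 in regenerated cells and 5725 ± 167 in passage 1 (SD, n = 3 each). GPI, the isomerase that follows it, averaged 6431 ± 305 in passage 4, 6162 ± 866 in regenerated cells and 7286 ± 560 in passage 1. Their changes against passage 1 lay between -0.29 and -0.07. The 3 phosphofructokinase subunits, which form the main control step, did not pass in any comparison. PFKM averaged 603 ± 19.1 in passage 4, 765 ± 69.2 in regenerated cells and 632 ± 70.3 in passage 1, and its regenerated arrays lay above all others, for a change of 0.27 (adjusted p = 0.402).

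PFKL, the liver-type subunit, had signals of 1888, 1232 and 1412 in passage 4, 2369, 1328 and 1727 in regenerated cells, and 1540, 3162 and 3108 in passage 1. PFKP, the platelet-type subunit, had 742, 479 and 502 in passage 4, 630, 470 and 530 in regenerated cells, and 672, 1006 and 1041 in passage 1. For both genes passage 1 array 1 was far below passage 1 arrays 2 and 3 and close to the other groups. The passage 4 changes were -0.73 for PFKL (adjusted p = 0.200) and -0.65 for PFKP (adjusted p = 0.160). Without passage 1 array 1 they were -1.07 (adjusted p = 0.0254) and -0.84 (adjusted p = 0.0483), in a fit where labelling kind and group cannot be told apart. Within the labelling kind, against passage 1 array 1 alone, they were -0.05 and -0.25. In regenerated cells PFKP changed by -0.71 (adjusted p = 0.111), and by -0.90 within the labelling kind (adjusted p = 0.0485).

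ALDOC, an aldolase isoenzyme, had signals of 414, 678 and 527 in passage 4, 418, 620 and 730 in regenerated cells, and 1274, 915 and 819 in passage 1. Neither passage 4 nor regenerated cells overlapped passage 1, but the spread within groups was wide, and the changes were -0.88 ± 0.27 in passage 4 (SE, adjusted p = 0.0872) and -0.76 ± 0.27 in regenerated cells (adjusted p = 0.117). Groups that do not overlap were common: in passage 4 against passage 1, 10 of the 23 members had 3 arrays all above or all below the other 3, beside 23.9% of named genes. In regenerated against passage 1 there were 9 such members, beside 23.7%, and in passage 4 against regenerated 4, beside 36.5%. With 3 arrays a group an exact permutation test, two-sided, cannot give a p under 0.1 for a single gene.

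**Figure D2:**
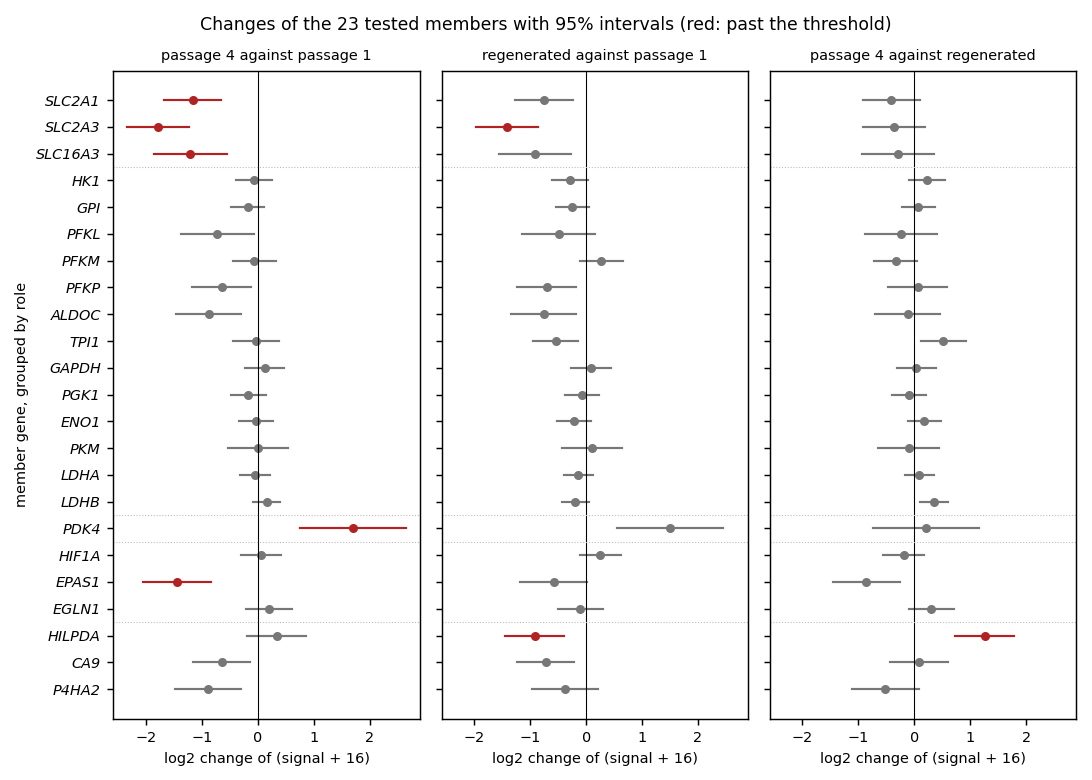
Log2 change with its 95% interval for the 23 tested members, grouped by role, in each of the 3 comparisons; red marks an adjusted p under 0.05. The 3 transporters lie left of 0 in the comparisons with passage 1, and the glycolytic enzymes lie between -0.88 and 0.51 with none in red.

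PDK4, a kinase that turns off pyruvate dehydrogenase, was the member that rose. Its signals were 1705, 5036 and 1104 in passage 4, 1487, 2257 and 1842 in regenerated cells, and 552, 572 and 831 in passage 1. All passage 4 and regenerated arrays were above all passage 1 arrays, with passage 4 array 2 far above the others. The change was 1.70 ± 0.43 in passage 4 cells (SE, adjusted p = 0.0452) and 1.50 ± 0.43 in regenerated cells (adjusted p = 0.0677). Without passage 4 array 2 the passage 4 change was 1.08 (adjusted p = 0.0815), and the regenerated change, whose estimate does not use that array, then passed (adjusted p = 0.00936). Within a labelling kind the changes were 1.91 (adjusted p = 0.202) and 1.39 (adjusted p = 0.114).

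The dimmer PDK4 probe set gave 473, 1597 and 407 in passage 4, 359, 520 and 496 in regenerated cells, and 169, 156 and 213 in passage 1. It had the same order of groups and the same high array, with changes of 1.84 in passage 4 (adjusted p = 0.0305) and 1.28 in regenerated cells (adjusted p = 0.0991). PDK4 therefore moved up by both of its probe sets in passage 4 cells.

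Of the HIF subunits and oxygen sensors, 4 of 6 listed had a probe set and 3 were tested. EPAS1, the alpha subunit HIF-2 alpha that is abundant in endothelium, had signals of 777, 1403 and 873 in passage 4, 1247, 2486 and 1864 in regenerated cells, and 3252, 2554 and 2356 in passage 1. Passage 4 was below passage 1 on every array, and regenerated cells lay between the other groups and overlapped both. The change in passage 4 cells was -1.44 ± 0.28 (SE, adjusted p = 0.0154), and within the labelling kind -1.71 (adjusted p = 0.0661). In regenerated cells it was -0.58 (adjusted p = 0.246), and passage 4 differed from regenerated cells by -0.86 (adjusted p = 0.0643).

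HIF1A, the other alpha subunit, showed no such difference by its brightest probe set, which gave 9049, 9962 and 9242 in passage 4, 9184, 9377 and 14498 in regenerated cells, and 8895, 9533 and 8690 in passage 1. Apart from regenerated array 3 all arrays were within a narrow band, and the changes were 0.06 in passage 4, with a 95% interval of -0.30 to 0.42, and 0.25 in regenerated cells, with an interval of -0.11 to 0.61. The next HIF1A probe set gave 422, 646 and 577 in passage 4, 17.7, 28.9 and 47.4 in regenerated cells, and 535, 25.7 and 37.0 in passage 1. Passage 1 was split as in the labelling kinds: array 1 was with passage 4, and arrays 2 and 3 were with regenerated cells. Passage 4 arrays are all of 1 kind and regenerated arrays all of the other, so kind and group differ only through passage 1. The cause was not tested. Passage 4 was higher than regenerated cells by 3.60 in the fit (adjusted p = 0.0107), and by 0.05 within the labelling kind (adjusted p = 0.970). The remaining HIF1A probe sets were dim, from 20.9 to 193, and did not pass.

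**Figure D3:**
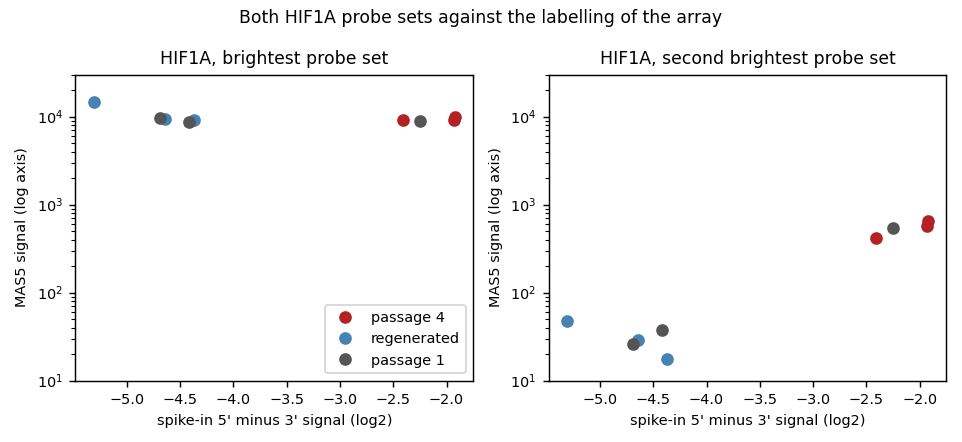
MAS5 signal of the brightest and the next HIF1A probe set, on a log axis, against the log2 5′ minus 3′ signal of the added control transcripts, 1 point per array. The brightest lies between 8690 and 14498 across the axis, while the next one is at 422 or more on the 4 arrays to the right and at 47.4 or less on the 5 to the left.

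EGLN1, the prolyl hydroxylase PHD2, averaged 1755 ± 76.6 in passage 4, 1424 ± 166 in regenerated cells and 1547 ± 339 in passage 1 (SD, n = 3 each). Its changes were 0.20 in passage 4 and -0.10 in regenerated cells, and neither passed. The dimmest of its 3 probe sets gave 542, 565 and 655 in passage 4, 386, 224 and 327 in regenerated cells, and 526, 374 and 433 in passage 1. Passage 4 was above both other groups there, and it was higher than regenerated cells by 0.91 (adjusted p = 0.0279), or by 0.53 within the labelling kind (adjusted p = 0.508).

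Among hypoxia-induced targets 3 of 7 listed were measured. HILPDA, a lipid droplet protein that is strongly induced by HIF, had signals of 510, 534 and 501 in passage 4, 254, 161 and 213 in regenerated cells, and 532, 317 and 388 in passage 1. The regenerated arrays were below all others, and passage 4 overlapped passage 1. The change in regenerated cells was -0.92 ± 0.24 (SE, adjusted p = 0.0496), and passage 4 was higher than regenerated cells by 1.26 ± 0.24 (adjusted p = 0.00798). Within the labelling kind these were -0.72 (adjusted p = 0.0935) and 0.68 (adjusted p = 0.375). In passage 4 against passage 1 it was 0.34, with a 95% interval of -0.19 to 0.87.

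The dimmer HILPDA probe set gave 367, 271 and 420 in passage 4, 190, 79.4 and 36.4 in regenerated cells, and 265, 137 and 229 in passage 1. It was again lowest in regenerated cells, with overlap between regenerated and passage 1, and passage 4 exceeded regenerated cells by 1.85 (adjusted p = 0.0179). The regenerated change against passage 1 was -1.12 by this probe set (adjusted p = 0.156).

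CA9, a membrane carbonic anhydrase that serves as a textbook hypoxia marker, was dim in all groups. Its signals were 70.0, 58.9 and 70.4 in passage 4, 54.5, 63.6 and 67.9 in regenerated cells, and 111, 109 and 118 in passage 1. Passage 4 and regenerated cells both lay below passage 1 with tight replicates by this probe set, yet the changes of -0.64 (adjusted p = 0.149) and -0.72 (adjusted p = 0.0950) did not pass. A dimmer CA9 probe set gave 66.1, 79.4 and 23.1 in passage 4 and 80.4, 60.8 and 70.5 in passage 1, which overlapped. Its regenerated signals, 9.78, 50.6 and 56.8, lay below those of passage 1. P4HA2, a subunit of the collagen prolyl hydroxylase, had 2369, 1802 and 1356 in passage 4, 2787, 2225 and 2766 in regenerated cells, and 2530, 5198 and 2851 in passage 1. Passage 4 lay below passage 1, with a change of -0.89 (adjusted p = 0.0884), and passage 1 array 2 stood well above the others. A dimmer P4HA2 probe set had 708, 501 and 338 in passage 4, 547, 103 and 59.3 in regenerated cells, and 555, 863 and 522 in passage 1, so that regenerated arrays 2 and 3 were low as in the dimmer GAPDH probe set.

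Over the whole set, 16 of the 23 members had a negative change in passage 4 cells and 18 of 23 in regenerated cells, with medians of -0.07 and -0.29. With median centring of the arrays these counts were 19 and 18, with medians of -0.22 and -0.31, and with quantile normalization 17 and 19. Of all named genes tested 48.2% and 45.7% had a positive change, so a negative one was somewhat more common there too. The order of arrays within a group was counted over the members only, with no share over all probe sets beside it. In passage 4 the arrays were the lowest of the group for 7, 8 and 8 members. Regenerated array 2 was the lowest of its group for 14 of the 23 members, and regenerated array 3 for 1. Passage 1 array 1 was the lowest of its group for 11 members and the highest for 9, among them SLC2A3, ALDOC and EPAS1.

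The summed signal of the 8 fibroblast markers with a probe set, of 10 listed, was 6222 to 11010 in passage 4, 4583 to 5733 in regenerated cells and 1985 to 3848 in passage 1. Different genes carried that sum: POSTN had 4892 to 9212 in passage 4, 13.1 to 1500.0 in regenerated cells and 685 to 1103 in passage 1, and FBLN1 had 804 to 1195 in passage 4, 2697 to 4409 in regenerated cells and 754 to 2879 in passage 1. Of the 6 fibroblast markers tested with limma, 0 passed in passage 4 against passage 1 (3 at an unadjusted p under 0.05). THY1 (2.89) and LUM (3.50) rose in regenerated cells. Between passage 4 and regenerated cells POSTN was higher (5.35), and THY1 (-2.35) and FBLN1 (-1.67) were lower. The summed signal of 8 of 12 smooth muscle and pericyte markers was 7234 to 22297 in passage 4, 20417 to 30721 in regenerated cells and 8729 to 24417 in passage 1. Within that sum ACTA2 varied widely between arrays of a group. It had 10501, 485 and 1140 in passage 4, 10021, 12254 and 18924 in regenerated cells, and 13189, 2519 and 196 in passage 1. Of the 5 tested with limma, SMTN rose in regenerated cells (0.89, adjusted p = 0.0422). CNN1 was lower in passage 4 than in regenerated cells (-2.53, adjusted p = 0.0325). The endothelial sum, over 14 of 17, was 24959 to 25510 in passage 4, 21660 to 30246 in regenerated cells and 24888 to 29664 in passage 1, and the leukocyte sum, over 8 of 12, was at most 401 on any array. No marker was at 0 on any array. The part of these cell types in the member changes was not tested.

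Other genes of the same pathways were read from a list of 106, of which 71 had a probe set and 64 were tested. In passage 4 cells 3 rose and 6 fell against passage 1, in regenerated cells 2 rose and 6 fell, and between passage 4 and regenerated cells 4 were higher and 4 lower. That made 14.1%, 12.5% and 12.5% of the 64, beside 4.82%, 5.93% and 10.7% of all named genes tested. The third share was close to that of named genes. The list was chosen with earlier results of these data known. Its shares and counts of signs are therefore not read as a difference from named genes. Within a labelling kind the limma fit kept 0 of the 9, 5 of the 8 (TXNIP, ENO3, PGD, ADM and STC1) and 0 of the 8 past the threshold, with 9, 8 and 4 at an unadjusted p under 0.05.

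Control of glucose uptake includes the arrestins TXNIP and ARRDC4, which pull glucose transporters from the cell surface and are themselves induced by glucose. TXNIP had signals of 254, 536 and 250 in passage 4, 392, 550 and 472 in regenerated cells, and 1014, 2359 and 3095 in passage 1. Every passage 4 and regenerated array was below passage 1, with changes of -2.53 in passage 4 (adjusted p = 0.00515) and -2.02 in regenerated cells (adjusted p = 0.0135). ARRDC4 averaged 83.7 ± 35.0 in passage 4, 239 ± 51.6 in regenerated cells and 536 ± 348 in passage 1, and fell by 2.30 in passage 4 cells (SD, n = 3 each; adjusted p = 0.0155). Of the 6 tested genes of that list these were the ones that passed.

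Of 20 other glycolysis and pyruvate genes, 1 rose and 1 fell in passage 4 cells, and 2 rose in regenerated cells. BPGM, which makes and removes 2,3-bisphosphoglycerate beside the main pathway, moved in opposite directions, with signals of 755, 977 and 832 in passage 4, 2817, 3264 and 3725 in regenerated cells, and 1719, 2094 and 1898 in passage 1. The 3 groups did not overlap. Its change was -1.14 in passage 4 (adjusted p = 0.00479) and 0.77 in regenerated cells (adjusted p = 0.0261), and passage 4 differed from regenerated cells by -1.91 (adjusted p = 0.000341). ENO3, the muscle enolase, had 2668, 870 and 1279 in passage 4, 5266, 5086 and 5690 in regenerated cells, and 544, 1148 and 456 in passage 1. Its regenerated arrays stood far above all others, with a change of 2.99 (adjusted p = 0.00213), and 2.85 within the labelling kind (adjusted p = 0.00576).

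PDHB, a subunit of pyruvate dehydrogenase, averaged 3949 ± 197 in passage 4, 2986 ± 137 in regenerated cells and 2531 ± 107 in passage 1, and rose by 0.64 in passage 4 cells (SD, n = 3 each; adjusted p = 0.0207). FBP1, a gluconeogenic phosphatase, differed by -1.96 between passage 4 and regenerated cells (adjusted p = 0.0344), and GPD2, the mitochondrial glycerol phosphate dehydrogenase, differed by 1.97 (adjusted p = 0.0208). Both were dim, with means of 36.9 in passage 4 and 207 in regenerated cells for FBP1, and of 184 in passage 4 and 35.5 in regenerated cells for GPD2. In the pentose phosphate pathway 1 of 5 genes passed, PGD, the 6-phosphogluconate dehydrogenase, with a change of -0.84 in regenerated cells (adjusted p = 0.0434).

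Of 7 other HIF regulators, ARNT2, a paralogue of the dimer partner ARNT, rose in passage 4 cells. It averaged 347 ± 115 in passage 4, 159 ± 77.9 in regenerated cells and 101 ± 43.2 in passage 1, a change of 1.66 (SD, n = 3 each; adjusted p = 0.0405). SIAH2, a ubiquitin ligase that acts on prolyl hydroxylases, averaged 1122 ± 208 in passage 4, 570 ± 116 in regenerated cells and 992 ± 105 in passage 1. It fell in regenerated cells by 0.80 (adjusted p = 0.0481), and passage 4 exceeded regenerated cells by 0.96 (adjusted p = 0.0126). Its 4 dimmer probe sets did not pass in any comparison, and for passage 4 against regenerated cells they gave -0.25, -0.12, 0.57 and 0.43.

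Of 26 other hypoxia-induced targets tested, 21 had a negative change in each comparison with passage 1. Of all named genes tested, 48.2% had a positive change in passage 4 cells and 45.7% in regenerated cells. In passage 4 cells 3 fell and 1 rose, and in regenerated cells 3 fell. ADM, adrenomedullin, a vasodilator peptide, had signals of 2333, 3133 and 3379 in passage 4, 437, 418 and 720 in regenerated cells, and 4199, 3540 and 2930 in passage 1. The regenerated arrays were far below the rest, and passage 4 overlapped passage 1. The change was -2.75 ± 0.24 in regenerated cells (SE, adjusted p = 0.000220), -0.27 in passage 4 cells (adjusted p = 0.598), and passage 4 exceeded regenerated cells by 2.48 (adjusted p = 0.000383). Within the labelling kind the regenerated change was -2.62. HILPDA and ADM were thus both lowest in regenerated cells.

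STC1, a secreted glycoprotein, changed by -2.23 in regenerated cells (adjusted p = 0.0112) at a low signal, 15.3 ± 3.84 in regenerated cells against 147 ± 97.6 in passage 1 (SD, n = 3 each), and BHLHE40, a transcriptional repressor, by -1.36 (adjusted p = 0.0396). In passage 4 cells ERO1A, an oxidase of the endoplasmic reticulum, changed by -0.99 (adjusted p = 0.0268) and TMEM45A by -1.40 (adjusted p = 0.0367). LOX, a collagen cross-linking oxidase, averaged 2735 ± 1320 in passage 4, 927 ± 194 in regenerated cells and 698 ± 460 in passage 1, and rose by 2.03 in passage 4 cells (SD, n = 3 each; adjusted p = 0.0193). Within the labelling kind the rise of LOX was 1.05 (adjusted p = 0.308), and over the alternatives it ran from 1.00 to 2.52 with 15 of 20 past the threshold. The signal of TMEM45A in passage 4 was also below that in regenerated cells, a difference of -1.25 (adjusted p = 0.0305), and that of LOX was above it by 1.46 (adjusted p = 0.0366), while within the labelling kind the LOX difference was -0.011.

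VEGFA, the vascular growth factor, had 646, 1234 and 1088 in passage 4, 1166, 1699 and 1828 in regenerated cells, and 2203, 1858 and 1823 in passage 1 by its brightest probe set. That is a change of -1.02 in passage 4 cells (adjusted p = 0.0415). A dimmer VEGFA probe set had 618, 843 and 664 in passage 4, 951, 1039 and 940 in regenerated cells, and 579, 591 and 423 in passage 1, with a change of 0.41 in passage 4 cells and 0.87 in regenerated cells (adjusted p = 0.0291). The dimmest VEGFA probe set gave -0.50 in passage 4 and -0.23 in regenerated cells and did not pass. The direction of VEGFA therefore differed between its probe sets.

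**Figure D4:**
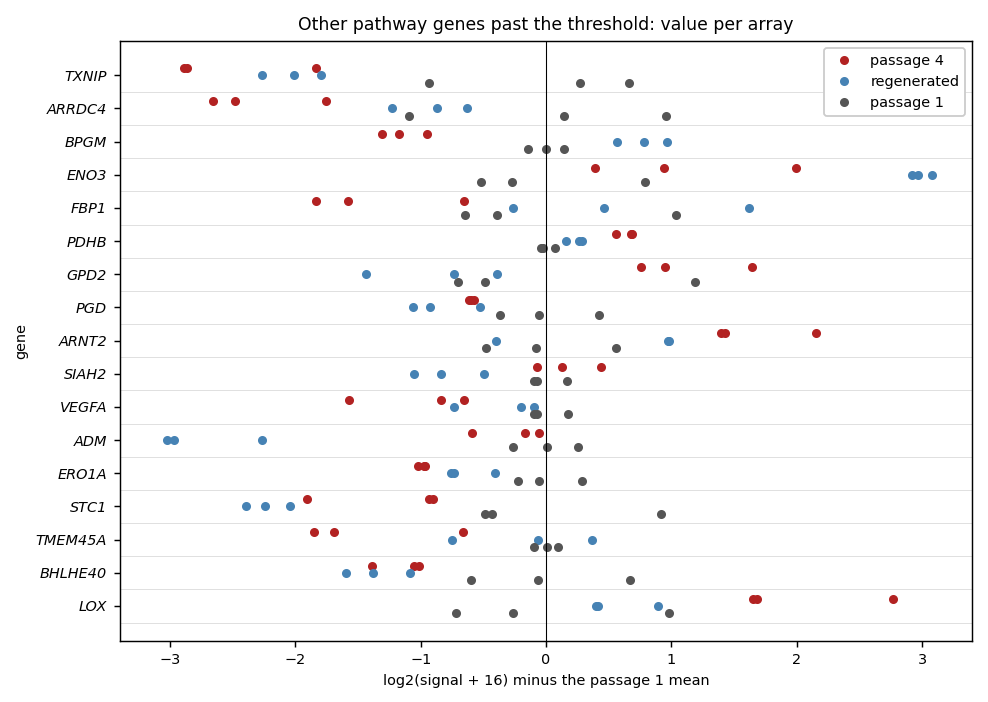
Log2(signal + 16) of each array minus the passage 1 mean, for other pathway genes past the threshold in at least 1 comparison. Regenerated cells lie alone to the left for ADM and to the right for ENO3, and passage 4 and regenerated cells lie on opposite sides of passage 1 for BPGM.

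Of the other pathway calls against passage 1, 5 passed in fewer than 10 of the alternative fits. SIAH2 in regenerated cells passed in 4 of 20, VEGFA in passage 4 cells in 6 of 20, BHLHE40 in regenerated cells in 6 of 19, ARNT2 in passage 4 cells in 7 of 20 and PGD in regenerated cells in 8 of 20. ADM and ENO3 in regenerated cells passed in 20 of 20. For passage 4 against regenerated cells LOX passed in 9 of 20.

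The member calls differed in how far they rested on the settings. Of 20 alternative fits, the fall of SLC2A3 passed in 19 for passage 4 and in 20 for regenerated cells. EPAS1 passed in 15, SLC2A1 in 13, SLC16A3 in 7 and PDK4 in 5 for passage 4 against passage 1. HILPDA passed in 5 for regenerated against passage 1 and in 18 for passage 4 against regenerated. None of these changed sign.

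**Figure D5:**
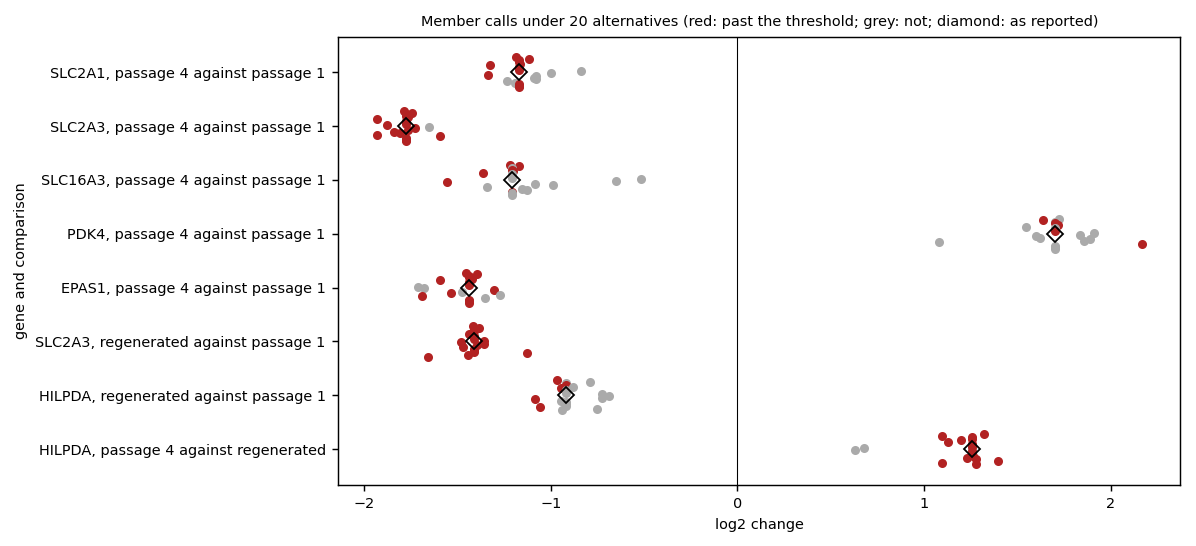
Log2 change of each member call under 20 alternative fits (points, red where the adjusted p is under 0.05 and grey where not) and as reported (diamond). SLC2A3 stays between -1.93 and -1.12 in its 2 comparisons, and every point keeps the sign of its diamond.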

How the data were processed

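The authors deposited a linear intensity for each probe set, which the submitters' processing notes call a MAS5 signal. MAS5 version, scaling target, detection calls and genome build: not given in the sources used here. Since the 2% trimmed mean was 500.1 on every array, no further normalization was applied. The array medians still differed, from 86.5 to 109, and quantile normalization and median centring were run as alternatives. Array number limits the precision. Of 24123 probe sets, 124 controls were left out, and 15299 with at least 3 of 9 arrays above their own 40th percentile were tested. By the platform annotation 10099 probe sets had 1 symbol, 198 had several and 13826 had no symbol. All 9 arrays were fitted on log2(signal + 16) with limma 3.58.1 in R 4.3.3 (lmFit, eBayes with an intensity trend), two-sided, with 6 residual degrees of freedom and Benjamini-Hochberg adjustment within a comparison. The script was tested on simulated data. Every member with a probe set was named, and other pathway genes were named where their brightest probe set passed. Members, lists, markers and the division by labelling kind were chosen with earlier results of these data known. Alternatives varied the pseudocount (1, 64), the filter, the normalization, the variance model, the groups fitted, a replicate block, the labelling kind or its spike-in difference as a term, the probe set and each array. No sequences are shown.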

Additional observations from a re-analysis of the deposited data

Results flagged for a closer look

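These results passed for passage 4 against regenerated cells while the changes against passage 1 had opposite signs in the 2 groups. HILPDA differed by 1.26, and its dimmer probe set by 1.85. The second HIF1A probe set differed by 3.60 and by 0.05 within the labelling kind, and the dimmest EGLN1 probe set by 0.91 and by 0.53. BPGM differed by -1.91, and by -1.70 within the labelling kind (adjusted p = 0.0517). FBP1 differed by -1.96, GPD2 by 1.97 and SIAH2 by 0.96, and within the labelling kind these were -3.52, 0.19 and 1.07, with adjusted p of 0.0923, 0.897 and 0.184. A difference within the labelling kind between these groups is reached only through the passage 1 arrays.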

How the results depend on the processing

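The counts of members past the threshold were 5 for passage 4 against passage 1, 2 for regenerated against passage 1 and 1 for passage 4 against regenerated. For passage 4 against passage 1 the count was 3 with no filter, with no intensity trend and with only the 2 groups in the fit, 1 with the labelling kind as a block, and 0 with the spike-in difference as a covariate (limma; 5 at an unadjusted p under 0.05). Leaving out an array gave 1 to 7, with 7 without passage 1 array 1, where labelling kind and group cannot be told apart. For regenerated against passage 1 it was 1 with log2(signal + 64), with no filter and with quantile normalization, 4 with the labelling kind as a block, and 1 to 5 leaving out an array, with 5 without regenerated array 1. For passage 4 against regenerated it was 3 with quantile normalization, 2 with median centring, 0 with the labelling kind and 0 with the spike-in covariate (limma; 1 at an unadjusted p under 0.05 in each), and 1 to 3 leaving out an array. Over all probe sets, 733, 840 and 1912 passed. The labelling kind made these 150, 926 and 35, the covariate 144, 639 and 13, and leaving out an array 244 to 1403, 291 to 1238 and 895 to 2406. With only the groups compared 479 passed for regenerated against passage 1. Median centring moved the median of all probe sets for passage 4 against passage 1 to -0.12, against 0.04 as reported, and that for passage 4 against regenerated to -0.12, against 0.01. It moved the share of upward calls to 40.5%, against 56.6%, for passage 4 against passage 1, and to 52.3%, against 65.2%, for passage 4 against regenerated. The passage 4 against regenerated difference of LOX reversed to -0.011 with the labelling kind and to -0.18 with the covariate, and that of GPD2 to -0.080 with the covariate. The causes were not tested. A median over probe sets gives a value and no count. The correlations of same-numbered arrays, taken on deviations from group means, ran from -0.14 to 0.19, and 1 of 9 was highest with its own number. With 3 arrays a group these values cannot show whether the replicate numbers pair the arrays. With a replicate block the member counts were 4, 1 and 1, and 554 probe sets passed for regenerated against passage 1. Signals near the filter, such as CA9, leave changes understated.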

Other observations

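Dimmer probe sets of some listed pathway genes passed where the brightest one did not. For ANGPTL4, a secreted lipase inhibitor induced by hypoxia, the dimmer probe set gave 813, 1036 and 901 in passage 4, 334, 582 and 597 in regenerated cells, and 1097, 1476 and 1229 in passage 1. Regenerated cells were lowest, with a change of -1.34 (adjusted p = 0.00908), and passage 4 exceeded them by 0.88 (adjusted p = 0.0324). A dimmer probe set of PLOD1, a collagen lysyl hydroxylase, gave 1865, 1590 and 1312 in passage 4, 651, 271 and 98.7 in regenerated cells, and 822, 942 and 921 in passage 1. Passage 4 exceeded regenerated cells by 2.50 (adjusted p = 0.00711). Regenerated arrays 2 and 3 were below regenerated array 1 there, as in the dimmer GAPDH probe set. A dimmer probe set of RACK1, a scaffold protein that binds HIF1A, changed by -2.71 in passage 4 (adjusted p = 0.00401) and -1.89 in regenerated cells (adjusted p = 0.0176). The brightest RACK1 probe set changed by 0.15 and 0.03.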
